A study of Mus musculus with 16 samples.

Results

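The genes examined here encode the proteases that cut the extracellular matrix and the proteins that hold them in check: the matrix metalloproteinases (Mmp), the ADAM and ADAMTS proteases, the ADAMTS-like proteins and the tissue inhibitors of metalloproteinases (Timp). They were found by symbol, as every gene of the array whose symbol begins with Mmp, Timp, Adamts or Adam followed by its number. This gave 70 of the 18193 genes on the array with a probe set of their own, and each was represented by its probe set with the highest mean over all arrays. RNA of mouse white adipose tissue had been hybridized to 16 microarrays, 4 in each of 4 groups on the C57BL6/J background. The groups were Sirt1 knockout and wild-type mice fed a high fat diet, and Sirt1 knockout and wild-type mice fed a low fat diet. Knockout mice carried a Cre recombinase under the promoter of FABP4, a fatty acid binding protein, which removed Sirt1, the gene of an NAD-dependent deacetylase. The labels call this deletion adipocyte specific, and the cells in which it took place were not checked here. Wild-type mice had no Cre, so the genotype comparisons hold the transgene as well as the deletion. Every mouse ate its diet for 8 weeks starting at 4 weeks of age, and tissue was collected at 12 weeks. The sources used here do not name the depot, nor do they say that each array stands for a separate mouse, so the p-values describe the spread between these samples.

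Matrix metalloproteinases are zinc enzymes made as inactive precursors, and between them they cut collagens, elastin, proteoglycans and other secreted proteins. ADAMTS enzymes are secreted relatives that cut proteoglycans such as versican and aggrecan or trim procollagens, while most ADAM enzymes sit in the membrane and release the outer parts of growth factors, cytokines and receptors. Timp proteins block the active sites of these enzymes with overlapping preferences. In adipose tissue the matrix is rebuilt as fat cells enlarge, and adipocytes, progenitors, endothelium and macrophages all contribute proteases.

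Values are log2 expression per probe set, so that a difference of 1 is a 2-fold difference. The median of all probe sets lay between 4.34 and 4.46 in every array, arrays of a group correlated with r between 0.987 and 0.996, and the number of arrays limits the precision of each value. The mean of 5 adipocyte markers lay between 12.76 and 13.12 in all arrays, but its members differed. Lep read 11.15 to 12.05 in wild-type fat under low fat feeding and 12.71 to 13.31 in the other groups. Lipe read 10.78 to 11.09 in knockout fat under high fat feeding and 11.26 to 11.87 in wild-type fat under low fat feeding. Adipoq, Cidec and Fabp4 lay between 13.19 and 13.94 in all arrays. Sirt1 had 1 probe set, whose place relative to the deleted segment is unknown here, and it read 8.30 to 8.93 in knockout and 8.85 to 9.10 in wild-type fat under high fat feeding, and 8.94 to 9.44 in knockout and 9.02 to 9.88 in wild-type fat under low fat feeding, so it does not check the genotype labels. Of the 5 arrays in which Tnnt3, a troponin of skeletal muscle, reached 8 or more, 1 each came from knockout fat on either diet and from wild-type fat under high fat feeding, and 2 (replicates 3 and 4) were wild-type fat under low fat feeding. Wild-type high fat replicate 4 also held epithelial transcripts, with a mean of 9.49 over 6 markers against 4.16 to 5.11 in the 3 other arrays of its group.

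A gene was tested when 4 or more arrays showed a log2 value of 4 or higher, which 38 of the 70 did, together with 12078 genes in all. These 38 were 6 of 13 secreted Mmp, 4 of 5 membrane-type Mmp, all 4 Timp, 9 of 15 Adamts proteases, all 5 Adamts-like genes, 8 of 9 Adam genes that encode active proteases outside the testis, and 2 of 19 other Adam genes. Among the 32 that were not tested were Mmp7, Mmp8, Mmp10, Mmp13, Mmp16 and Mmp20, which encode matrilysin, collagenases, a stromelysin, a membrane-type enzyme and an enamel protease, and the Adam genes known from the testis, such as Adam2 and Adam3. In 29 of these no array reached 4, and in Adam11, Adam28 and Adamts16 a single array did, with 4.715 as the highest value of any. Markers of male germ cells were also low, with array means between 2.79 and 3.29 over 5 genes.

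Differences are given as the first group minus the second with their standard error (SE). All p-values were computed with limma and adjusted by the Benjamini-Hochberg method over the 12078 genes, and 0.05 was the threshold. High fat feeding moved 17 of the 38 genes in wild-type fat, 15 upward and 2 downward, where 35.6% of all genes passed (20.5% upward and 15.2% downward). In knockout fat it moved 18, of which 11 rose and 7 fell, against 29.2% of all genes (15.6% upward and 13.5% downward). Under low fat feeding 12 of the 38 were higher and 3 lower in knockout than in wild-type fat, against 18.9% of all genes (11.7% and 7.24%). Under high fat feeding 5 were higher and 4 lower in knockout fat, against 15.1% of all genes (8.58% and 6.47%). That count of 9 became 5 without knockout high fat replicate 1, 2 or 4, and 15 with array weights. The response to the diet differed between genotypes for 9 of the 38, being more positive in knockout fat for 2 and more negative for 7, against 13.0% of all genes (5.12% and 7.87%). Without the 5 arrays of high Tnnt3 these counts were 9, 16, 5, 3 and 2 in the order given.

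The 38 genes had a median difference of 0.33 with the diet in wild-type fat, where that of all genes was 0.04, and of 0.02 with the diet in knockout fat, where that of all genes was -0.02. For knockout against wild type the medians were 0.28 on the low fat diet (0.04 over all genes) and 0.08 on the high fat diet (0.00 over all genes). Groups did not overlap for 13 genes upward and 1 downward with the diet in wild-type fat, where 17.7% and 13.1% of all genes were so placed. With the diet in knockout fat the counts were 11 upward and 7 downward, where 17.6% and 15.5% of all genes were so placed. For the genotype they were 10 and 2 on the low fat diet (11.8% and 6.02% of all genes) and 6 and 3 on the high fat diet (14.6% and 11.5%). The group mean was highest in knockout fat under high fat feeding for 16 of the 38 genes and lowest in wild-type fat under low fat feeding for 21, while wild-type fat under high fat feeding was lowest for 0. The order of group means was not counted over all genes, so these counts have no background beside them. They also include genes that passed in no comparison. The 4 pairwise comparisons share arrays, so counts across them are not independent. With the 5 arrays of high Tnnt3 left out, a setting chosen after the data were seen that leaves 11 arrays, the counts became 9 and 16 for the diet in wild-type and knockout fat, 5 and 3 for the genotype on the low and high fat diets, and 2 for the difference between genotypes. Of 56 calls of single genes followed through the settings, 28 were lost in this one.

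**Figure D1:**
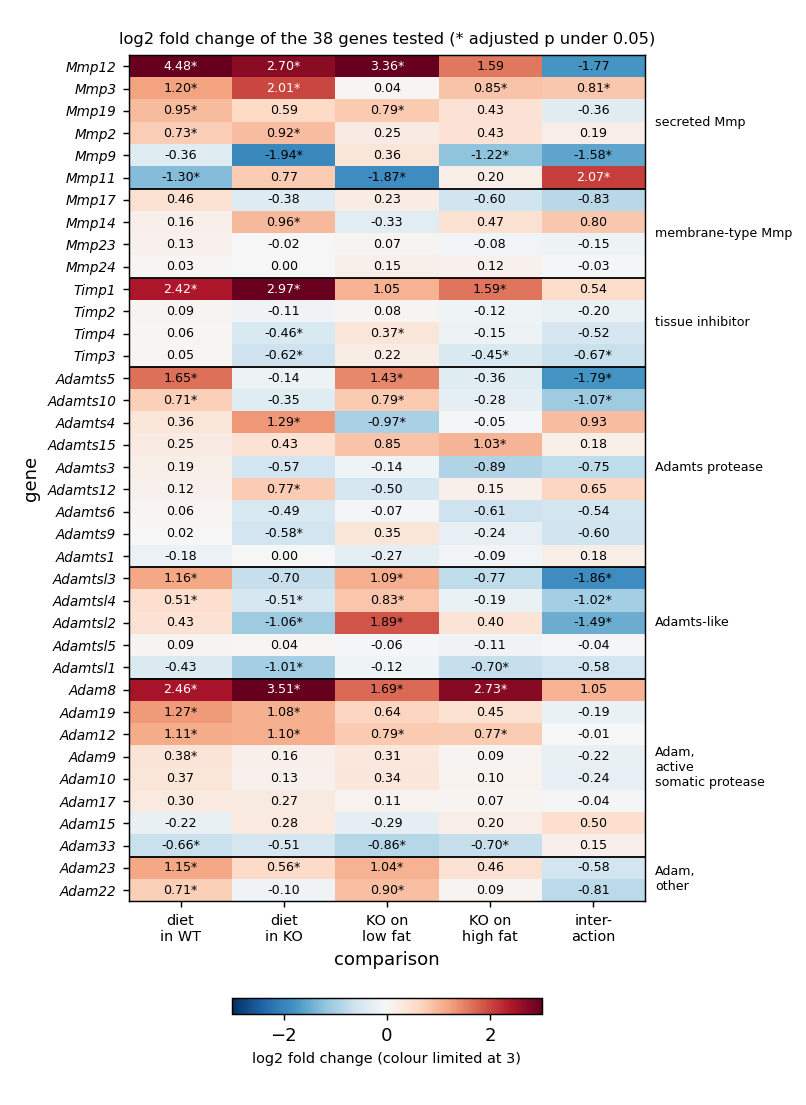
Log2 fold change of the 38 genes tested (rows, grouped by role) in 5 comparisons (columns): high against low fat diet in wild-type (WT) and in knockout (KO) fat, KO against WT fat on each diet, and the diet effect in KO minus that in WT fat (interaction). Stars mark an adjusted p under 0.05, and Mmp12 has the highest value for the diet in WT fat, 4.48, and for KO on low fat, 3.36.

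Mmp12, the metalloelastase of macrophages, had the largest difference of the 38 genes with the diet in wild-type fat and with the genotype on the low fat diet. It read 11.73, 12.03, 11.70 and 11.45 in knockout fat under high fat feeding, and 8.77, 11.56, 9.29 and 10.94 in wild-type fat on that diet. With low fat feeding it read 9.41, 8.93, 9.49 and 8.29 in knockout fat, and 6.80, 6.18, 5.72 and 3.95 in wild-type fat. All 4 arrays of wild-type fat under low fat feeding lay under every other array, and replicates 2 and 4 of wild-type fat under high fat feeding stood above the other two, replicate 2 within the range of knockout fat. Mmp12 rose with the diet by 4.48 ± 0.59 in wild-type fat (22.2-fold, adjusted p = 3.9e-05) and by 2.70 ± 0.59 in knockout fat (6.50-fold, adjusted p = 0.00273). It was higher in knockout than in wild-type fat by 3.36 ± 0.59 on the low fat diet (10.3-fold, adjusted p = 0.00113). Under high fat feeding the difference of 1.59 ± 0.59 had an adjusted p of 0.0817, ranging from 0.0249 to 0.232 over 27 other settings. It passed with array weights (0.0249), without wild-type high fat replicate 2 (2.06, 0.0275) and without wild-type low fat replicate 4 (0.0407). The diet effect in knockout minus that in wild-type fat was -1.77, with a 95% interval from -3.54 to -0.005 and an adjusted p of 0.171, which passed with array weights alone of 26 settings (0.0358).

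Macrophage markers differed between the groups as well. The mean of 8 of them (Adgre1, Cd68, Csf1r, Itgam, Cd14, Itgax, Trem2 and Mrc1) lay between 10.24 and 10.43 in knockout and between 8.78 and 9.71 in wild-type fat under high fat feeding. It lay between 8.47 and 8.83 in knockout and between 7.80 and 8.01 in wild-type fat under low fat feeding. Within wild-type fat under high fat feeding replicates 2 and 4 had the highest means, 9.71 and 9.54, as they did for Mmp12. Of the 8 markers 6 rose with the diet in each genotype, where 20.5% of all genes rose in wild-type and 15.6% in knockout fat. In knockout fat 2 were higher under low fat feeding and 4 on the high fat diet, against 11.7% and 8.58% of all genes. Csf1r lay between 10.64 and 11.48 in all arrays, and its groups overlapped. Itgam lay under 4 in all 4 arrays of wild-type fat under low fat feeding and Itgax in 3 of them. In tissue RNA, a change in the number of cells of a type and a change in RNA per cell cannot be told apart, and the part of macrophage number in these values was not tested.

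Mmp3, stromelysin-1, which cuts proteoglycans and fibronectin and activates other Mmp precursors, was raised by the diet in both genotypes, and more in knockout than in wild-type fat. It read 9.59, 9.43, 9.49 and 9.43 in knockout fat under high fat feeding, and 8.61, 8.84, 8.61 and 8.48 in wild-type fat on that diet. The low fat arrays read 7.45, 7.59, 7.86 and 7.01 in knockout fat, and 7.47, 7.61, 7.26 and 7.40 in wild-type fat. The low fat groups overlapped, wild-type fat under high fat feeding lay above both of them, and knockout fat under high fat feeding lay above all other arrays. The rise with the diet was 2.01 ± 0.15 in knockout fat (4.03-fold, adjusted p = 7.75e-07) and 1.20 ± 0.15 in wild-type fat (2.30-fold, adjusted p = 2.4e-05). The diet effect in knockout fat exceeded that in wild-type fat by 0.81 ± 0.21 (adjusted p = 0.0208). Knockout fat was higher by 0.85 ± 0.15 on the high fat diet (adjusted p = 0.00152), while on the low fat diet the difference was 0.04 ± 0.15 (95% interval -0.28 to 0.36). The difference between the diet effects had an adjusted p of 0.105 without the arrays of high Tnnt3, the only one of 26 settings in which it was lost (0.00827 to 0.105 over all of them).

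Mmp12 and Mmp3 lie in a run of 9 of the 70 genes on chromosome 9, in the order Mmp13, Mmp12, Mmp1b, Mmp3, Mmp1a, Mmp10, Mmp8, Mmp20 and Mmp7. The 7 neighbours did not pass the filter, with means over the 16 arrays between 1.45 and 2.91. The starts of Mmp12 and Mmp3, which both rose with the diet, are shown with those of Timp1, which rose in the same samples, and of the neighbour Mmp13, collagenase-3. Mmp13 stayed under 4 in every array and was not tested. Under that level it read 2.52 to 3.21 in knockout and 1.94 to 3.41 in wild-type fat under high fat feeding. On the low fat diet it read 1.70 to 2.19 in knockout and 1.54 to 2.07 in wild-type fat. Sequences are from RefSeq (build GRCm38.p6), each with 250 bases before and 50 after an annotated start, and Mmp12 is shown from the second of its 2 annotated starts, the one with the letters described here. They cover chr9:7347124-7347423 for Mmp12, chr9:7445572-7445871 for Mmp3, chr9:7272264-7272563 for Mmp13 and chrX:20869916-20870215 for Timp1, all on the + strand. Capitals mark the AP-1 letters TGANTCA and the TATA letters TATAAA, searched on both strands, and the marked stretches do not overlap. Counted from the annotated start, negative before it, TGANTCA begins at -44 in Mmp12, -46 in Mmp3 and -35 in Mmp13. TATAAA begins at 4 in Mmp12, which is after the start shown, at -7 in Mmp3 and at -16 in Mmp13.
Mmp12: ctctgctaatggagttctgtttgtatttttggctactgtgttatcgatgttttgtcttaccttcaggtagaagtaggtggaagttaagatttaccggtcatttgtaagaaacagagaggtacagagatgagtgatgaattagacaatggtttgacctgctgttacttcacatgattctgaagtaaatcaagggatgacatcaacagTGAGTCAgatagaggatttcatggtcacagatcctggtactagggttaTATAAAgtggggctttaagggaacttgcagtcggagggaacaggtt
Mmp3: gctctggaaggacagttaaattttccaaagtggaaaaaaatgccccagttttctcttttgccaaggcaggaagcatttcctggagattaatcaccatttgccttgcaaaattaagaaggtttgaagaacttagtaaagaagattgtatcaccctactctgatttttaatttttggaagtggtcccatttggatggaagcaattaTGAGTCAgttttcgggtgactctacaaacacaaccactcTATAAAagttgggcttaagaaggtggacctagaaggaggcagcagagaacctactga
Mmp13: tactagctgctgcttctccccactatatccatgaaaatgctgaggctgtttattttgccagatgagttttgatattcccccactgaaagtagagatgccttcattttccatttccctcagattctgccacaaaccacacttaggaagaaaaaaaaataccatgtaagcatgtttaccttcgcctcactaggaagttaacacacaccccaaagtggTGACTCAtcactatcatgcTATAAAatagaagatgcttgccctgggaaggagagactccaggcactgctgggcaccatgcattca
Timp1: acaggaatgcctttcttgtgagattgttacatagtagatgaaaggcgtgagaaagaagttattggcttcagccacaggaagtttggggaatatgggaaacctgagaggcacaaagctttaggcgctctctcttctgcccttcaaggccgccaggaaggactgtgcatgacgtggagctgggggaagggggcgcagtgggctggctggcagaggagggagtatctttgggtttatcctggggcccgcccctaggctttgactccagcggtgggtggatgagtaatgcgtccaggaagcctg
Of 32851 RefSeq promoters of this length, 7.81% hold TGANTCA and 13.6% hold TATAAA. In the chromosome 9 run 8 of 9 genes hold TGANTCA at any annotated start, all but Mmp8, and 9 of 9 hold TATAAA. Mmp12 and Mmp7 each have a further annotated start whose window holds neither. These counts are by gene, so they are not like the shares of all promoters. The letters are therefore shared by the 2 genes that were detected and by 6 (TGANTCA) and 7 (TATAAA) that were not, and they describe the window without showing that a factor binds there. Neither set of letters is in the Timp1 window.

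The other secreted Mmp genes did not follow 1 pattern. Mmp2, gelatinase A, rose with the diet in both genotypes, by 0.92 ± 0.23 in knockout fat (adjusted p = 0.00621) and by 0.73 ± 0.23 in wild-type fat (adjusted p = 0.0197). Its second probe set gave 0.90 (adjusted p = 0.00193) and 0.47 (adjusted p = 0.0609). Mmp19, a secreted enzyme of many tissues, was lowest in wild-type fat under low fat feeding, where it read 9.54 to 10.94 against 11.02 to 11.92 in the other 12 arrays. It rose with the diet in wild-type fat by 0.95 ± 0.22 (adjusted p = 0.00352) and was higher in knockout fat under low fat feeding by 0.79 ± 0.22 (adjusted p = 0.0211). With the diet in knockout fat Mmp19 differed by 0.59 ± 0.22 (adjusted p = 0.0548), and its dim second probe set, with a mean of 4.52, by 1.20 (adjusted p = 0.000503).

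Mmp9, gelatinase B, had its lowest group mean in knockout fat under high fat feeding. It read 4.08, 5.29, 4.09 and 4.35 in knockout fat and 6.06, 5.55, 5.23 and 5.84 in wild-type fat under high fat feeding. With low fat feeding the values were 6.45, 6.48, 6.34 and 6.31 in knockout fat and 5.74, 6.33, 5.91 and 6.14 in wild-type fat. Replicate 2 of knockout fat under high fat feeding reached the lowest wild-type array on that diet, and all 4 lay below both low fat groups. Mmp9 fell with the diet by 1.94 ± 0.24 in knockout fat (adjusted p = 2.19e-05) and was lower in knockout fat under high fat feeding, by a difference of -1.22 ± 0.24 (2.32-fold, adjusted p = 0.00295). In wild-type fat the diet difference was -0.36 ± 0.24 (adjusted p = 0.25), and the diet effects differed by -1.58 ± 0.33 (adjusted p = 0.00658, from 0.000479 to 0.206 over 26 settings). The last call was lost without the arrays of high Tnnt3 (0.0673) and with the mean of both probe sets (-0.67, 0.206). The 2 probe sets of Mmp9 disagreed on the response in wild-type fat. The other one, of nearly the same mean (5.57 against 5.64), fell with the diet by 1.69 in knockout fat (adjusted p = 0.000596) and by 1.93 in wild-type fat (adjusted p = 0.00016), with a difference between the diet effects of 0.23 (adjusted p = 0.762) and a genotype difference on the high fat diet of -0.42 (adjusted p = 0.393). The fall in knockout fat was therefore seen with both, and the genotype difference with 1 of them.

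Mmp11, stromelysin-3, which is activated inside the cell by furin, was highest in wild-type fat under low fat feeding. It read 6.61, 6.94, 6.78 and 6.49 in knockout fat against 9.14, 7.18, 8.80 and 9.17 in wild-type fat under low fat feeding. With high fat feeding it read 7.70, 7.44, 8.03 and 6.74 in knockout fat and 6.63, 6.71, 8.37 and 7.37 in wild-type fat. The low fat groups did not overlap, though replicate 2 of the wild type came close to the knockout arrays, and the high fat groups overlapped widely. Under low fat feeding Mmp11 was lower in knockout fat, by a difference of -1.87 ± 0.43 (adjusted p = 0.00679). Leaving out any 1 array did not end this call, and it was lost without the arrays of high Tnnt3 (0.0625), with adjusted p from 0.000512 over 27 settings. In wild-type fat it fell with the diet by 1.30 ± 0.43 (adjusted p = 0.0267), and the diet effects differed by 2.07 ± 0.61 (adjusted p = 0.0346). The fall with the diet was lost when wild-type low fat replicate 1, 3 or 4 or wild-type high fat replicate 1 or 2 was left out, with adjusted p between 0.06 and 0.083. The difference between diet effects was lost on leaving out any 1 of 10 arrays, with adjusted p between 0.053 and 0.0709. These were wild-type low fat replicates 1, 3 and 4, wild-type high fat replicates 1 and 2, knockout low fat replicates 1 and 3, and knockout high fat replicates 1, 2 and 3.

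**Figure D2:**
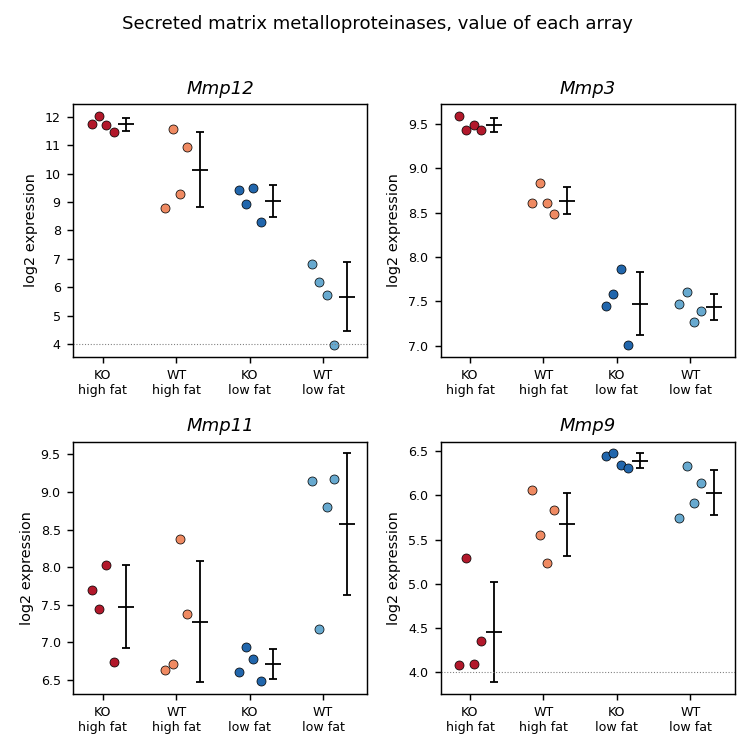
Log2 expression (vertical axes) of 4 secreted Mmp genes in each of 16 arrays, by group, with knockout (KO) left of wild type (WT) for each diet. Points are arrays, bars beside them are mean ± SD (n = 4), and the dotted line marks a log2 of 4. For Mmp9, 3 of the 4 arrays of KO fat under high fat feeding lie below all others, while for Mmp3 the 4 arrays of that group lie above all others.

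Of the membrane-type Mmp genes only Mmp14 passed a test. Mmp14 encodes MT1-MMP, a membrane collagenase that activates the Mmp2 precursor together with Timp2 and that mouse adipocytes need to grow within collagen. It read 8.60 to 9.52 in knockout fat under high fat feeding against 7.66 to 8.62 on the low fat diet, groups that overlapped at their edges, and rose with the diet by 0.96 ± 0.23 in knockout fat (adjusted p = 0.00437). Its 2 other probe sets gave 1.09 (adjusted p = 0.00111) and 0.97 (adjusted p = 0.0227). In wild-type fat the diet difference was 0.16 ± 0.23 (95% interval -0.31 to 0.64), and the difference between the diet effects, 0.80, had an adjusted p of 0.107. Mmp17, Mmp23 and Mmp24 passed in no comparison, though a second probe set of Mmp23 rose with the diet in wild-type fat by 0.39 (adjusted p = 0.0204). Mmp17, anchored through a lipid, lay near the filter with array values from 3.59 to 5.15.

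Of the 4 Timp genes Timp1 rose with the diet in both genotypes, Timp3 and Timp4 fell with it in knockout fat, and Timp2 passed in no comparison. Timp1, a soluble inhibitor of most secreted Mmp enzymes, read 8.96, 7.56, 8.91 and 8.28 in knockout fat under high fat feeding, and 6.48, 7.85, 6.22 and 6.78 in wild-type fat on that diet. Under low fat it read 5.64, 6.21, 5.27 and 4.71 in knockout fat, and 4.78, 4.70, 4.00 and 4.15 in wild-type fat. High fat arrays lay above all low fat arrays of both genotypes, with replicate 2 of the wild type inside the range of the knockout on the high fat diet. The rise with the diet was 2.97 ± 0.38 in knockout fat (7.82-fold, adjusted p = 3.48e-05) and 2.42 ± 0.38 in wild-type fat (5.37-fold, adjusted p = 0.000184). The difference between these, 0.54 (95% interval -0.60 to 1.69), had an adjusted p of 0.532. Knockout fat was higher on the high fat diet by 1.59 ± 0.38 (adjusted p = 0.0105), a call lost without the arrays of high Tnnt3 (0.0636) and kept in the other 26 settings (from 0.00169). Under low fat feeding the difference was 1.05 ± 0.38 (adjusted p = 0.0661, from 0.0294 to 0.61 over 27 settings), and it passed without knockout low fat replicate 4 (1.30, 0.0294) and without wild-type high fat replicate 2 (0.04).

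Timp3, which stays bound to the matrix and also inhibits ADAM17 and the aggrecanases, was lower in knockout fat under high fat feeding. It read 11.22, 11.43, 11.37 and 11.48 in knockout fat and 11.91, 11.93, 11.80 and 11.66 in wild-type fat under high fat feeding. Low fat values were 12.05, 11.96, 12.22 and 11.77 in knockout fat and 11.36, 11.88, 11.84 and 12.03 in wild-type fat. Knockout arrays on the high fat diet lay below all others except wild-type low fat replicate 1. In knockout fat Timp3 fell with the diet by 0.62 ± 0.14 (adjusted p = 0.00336), a call kept in 27 of 27 settings, and its 3 other probe sets fell by 0.81, 1.16 and 1.18 (adjusted p = 0.00167, 0.0267 and 0.00637). The diet difference in wild-type fat was 0.05 ± 0.14 (adjusted p = 0.814), and the diet effects differed by -0.67 ± 0.20 (adjusted p = 0.036). Under high fat feeding the genotypes differed by -0.45 ± 0.14 (adjusted p = 0.0412). These last calls were narrow. The genotype difference was lost on leaving out any 1 of 9 arrays (adjusted p between 0.0519 and 0.122), namely knockout high fat replicates 1 to 4, wild-type high fat replicates 1, 2 and 3 and knockout low fat replicates 1 and 2. The difference between diet effects was likewise lost on leaving out any 1 of 9 (between 0.0538 and 0.0763), namely knockout high fat replicates 1 and 3, wild-type high fat replicates 1, 2 and 3, knockout low fat replicates 1, 2 and 3 and wild-type low fat replicate 1.

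Timp4, an inhibitor abundant in adipose tissue and heart, read 12.11 to 12.29 in knockout and 12.18 to 12.49 in wild-type fat under high fat feeding, and 12.42 to 12.76 in knockout and 12.03 to 12.43 in wild-type fat under low fat feeding. In knockout fat it fell with the diet by 0.46 ± 0.12 (adjusted p = 0.00863), with no overlap, and in wild-type fat the difference was 0.06 ± 0.12 (adjusted p = 0.747). The diet effects differed by -0.52 (adjusted p = 0.0555). Under low fat feeding Timp4 was higher in knockout fat by 0.37 ± 0.12 (adjusted p = 0.0419), which was lost in 14 of 27 settings (0.0202 to 0.132). Among these were the omission of knockout high fat replicate 2, 3 or 4, wild-type high fat replicate 3, knockout low fat replicate 1, 3 or 4 and wild-type low fat replicate 1 or 2. The second probe set of Timp4, with a mean of 10.55, had the same signs and passed in neither comparison. It gave -0.57 with the diet in knockout fat (adjusted p = 0.141) and 0.62 for the genotype on the low fat diet (adjusted p = 0.132). Timp2, which inhibits Mmp enzymes and helps Mmp14 activate the Mmp2 precursor, lay between 11.53 and 12.27 in all arrays. A second probe set of Timp2 rose with the diet in knockout fat by 0.46 (adjusted p = 0.0471).

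**Figure D3:**
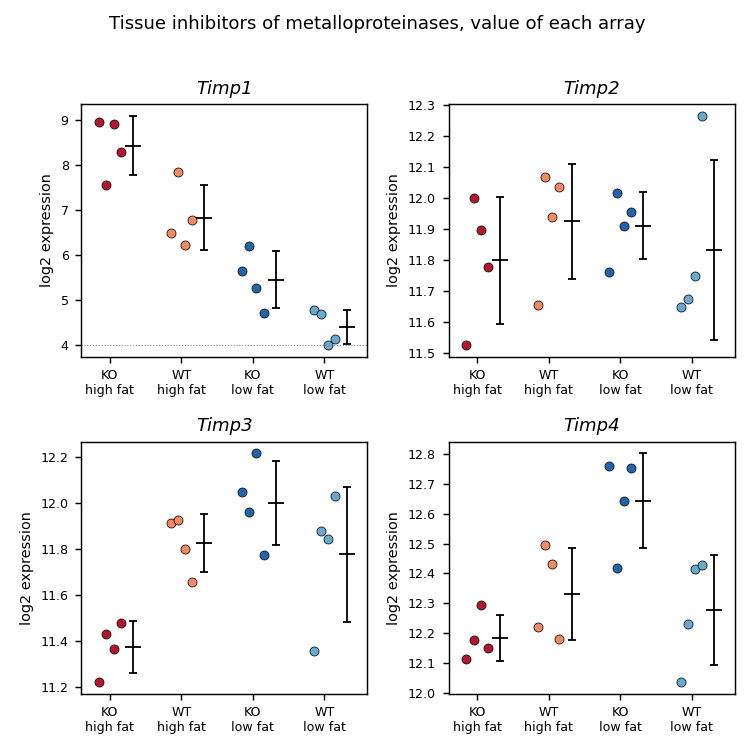
Log2 expression (vertical axes) of the 4 Timp genes in each array, by group, with knockout (KO) left of wild type (WT) for each diet. Points are arrays and bars beside them are mean ± SD (n = 4). Timp1 spans 4.00 to 8.96 with both high fat groups above the low fat groups, whereas the other 3 panels span about 1 log2 unit or less.

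Among the 9 tested Adamts proteases 2 rose and 0 fell with the diet in wild-type fat, and 2 rose and 1 fell with it in knockout fat. Over all genes 20.5% rose and 15.2% fell in wild-type fat, and 15.6% rose and 13.5% fell in knockout fat, so neither count stood clear of the background. Adamts5, an aggrecanase that also cuts versican, read 11.55, 11.70, 11.61 and 11.69 in knockout fat and 11.73, 12.19, 12.00 and 12.06 in wild-type fat under high fat feeding. With low fat the arrays read 11.77, 11.70, 11.68 and 11.96 in knockout fat, and 9.78, 10.22, 10.51 and 10.88 in wild-type fat. Wild-type fat under low fat feeding stood below all other arrays, and the other 3 groups lay close together. Adamts5 rose with the diet in wild-type fat by 1.65 ± 0.18 (3.13-fold, adjusted p = 7.36e-06) and was higher in knockout fat under low fat feeding by 1.43 ± 0.18 (2.70-fold, adjusted p = 6.13e-05). With the diet in knockout fat it differed by -0.14 ± 0.18 (95% interval -0.52 to 0.24), and the diet effects differed by -1.79 ± 0.25 (adjusted p = 0.000442). Its 3 other probe sets gave differences between the diet effects of -1.84, -2.05 and -1.57 (adjusted p = 0.000927, 0.00282 and 0.0591).

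Adamts10, which acts on fibrillin microfibrils, passed in the same 3 comparisons as Adamts5, in the same directions. It read 7.96 to 8.30 in knockout and 8.30 to 8.42 in wild-type fat under high fat feeding, and 8.25 to 8.74 in knockout and 6.97 to 8.09 in wild-type fat under low fat feeding. Its highest group mean was in knockout fat under low fat feeding, and wild-type fat on that diet overlapped knockout fat under high fat feeding. It rose with the diet in wild-type fat by 0.71 ± 0.19 (adjusted p = 0.0077), was higher in knockout fat under low fat feeding by 0.79 ± 0.19 (adjusted p = 0.00841), and its diet effects differed by -1.07 ± 0.27 (adjusted p = 0.0159). These 3 calls were lost without the arrays of high Tnnt3 (adjusted p = 0.0665, 0.0838 and 0.134). Its dim second probe set, with a mean of 4.30, gave a difference between the diet effects of -0.03 (adjusted p = 0.95).

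Adamts4, the other main aggrecanase, ran the other way on the low fat diet. It read 6.77, 6.91, 7.60 and 7.46 in knockout fat and 7.19, 7.13, 7.36 and 7.23 in wild-type fat under high fat feeding. With low fat feeding it read 5.98, 6.55, 5.36 and 5.67 in knockout fat and 6.17, 7.03, 7.22 and 7.04 in wild-type fat. Knockout fat under low fat feeding was the low group, with replicate 2 above replicate 1 of the wild type. Adamts4 rose with the diet in knockout fat by 1.29 ± 0.26 (adjusted p = 0.00153) and was lower in knockout fat under low fat feeding, by a difference of -0.97 ± 0.26 (adjusted p = 0.0167). The second of these was lost in 4 of 27 settings, with adjusted p between 0.00447 and 0.087 over all of them. Among the 4 were the omission of knockout low fat replicate 3 (-0.79, adjusted p = 0.0554), that of the arrays of high Tnnt3, and the mean of both probe sets. The dimmer probe set gave 1.05 with the diet in knockout fat (adjusted p = 0.044) and -0.77 for the genotype on the low fat diet (adjusted p = 0.162).

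Of the other Adamts proteases, Adamts15, a versican-cutting enzyme, read 9.14 to 9.38 in knockout against 7.94 to 8.51 in wild-type fat under high fat feeding, with no overlap. It was higher in knockout fat there by 1.03 ± 0.29 (adjusted p = 0.0271). That call was lost on leaving out knockout high fat replicate 1, 2 or 4 or wild-type high fat replicate 2, 3 or 4 (adjusted p between 0.0545 and 0.07). Adamts12 rose with the diet in knockout fat by 0.77 ± 0.20 (adjusted p = 0.00878). Adamts9, a versican-cutting enzyme, fell with the diet there by 0.58 ± 0.19 (adjusted p = 0.0305). The fall was lost without knockout low fat replicate 1, 3 or 4 or knockout high fat replicate 1 or 2 (between 0.0554 and 0.109). Adamts1, Adamts3, a procollagen-trimming enzyme, and Adamts6 passed in no comparison.

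The Adamts-like proteins share the carboxy-terminal domains of the Adamts enzymes and lack the protease, and several bind fibrillin microfibrils. Of the 5 tested, 3 were higher in knockout fat under low fat feeding and 3 fell with the diet in knockout fat, where 11.7% and 13.5% of all genes did so. Adamtsl2, which binds fibrillin and a latent TGF-beta binding protein, read 5.04, 5.02, 5.33 and 5.20 in knockout fat and 5.20, 4.61, 5.05 and 4.12 in wild-type fat under high fat feeding. The low fat arrays read 6.71, 6.34, 6.12 and 5.66 in knockout fat, and 3.77, 3.96, 4.93 and 4.61 in wild-type fat. Knockout fat under low fat feeding lay above all other arrays, and wild-type arrays on that diet lay near the filter. The difference of knockout from wild type on the low fat diet was 1.89 ± 0.28 (3.71-fold, adjusted p = 0.000271). With the diet Adamtsl2 fell in knockout fat by 1.06 ± 0.28 (adjusted p = 0.00911), while in wild-type fat the difference was 0.43 ± 0.28 (adjusted p = 0.24). The diet effects differed by -1.49 ± 0.39 (adjusted p = 0.0211, between 0.00782 and 0.0478 over 26 settings).

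Adamtsl3 read 5.48, 5.32, 5.32 and 5.09 in knockout and 5.19, 6.64, 6.41 and 6.03 in wild-type fat under high fat feeding, and 5.87, 6.11, 6.35 and 5.66 in knockout and 4.69, 5.21, 4.53 and 5.19 in wild-type fat under low fat feeding. Replicate 1 of wild-type fat under high fat feeding lay within the range of the low fat wild type, and the other 3 lay above it. Adamtsl3 rose with the diet in wild-type fat by 1.16 ± 0.26 (adjusted p = 0.0025), was higher in knockout fat under low fat feeding by 1.09 ± 0.26 (adjusted p = 0.00805), and had diet effects that differed by -1.86 ± 0.37 (adjusted p = 0.00434). Without the arrays of high Tnnt3 the adjusted p of these was 0.0656, 0.114 and 0.0911.

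Adamtsl4, a fibrillin-binding protein, was the 1 gene of the 38 that rose with the diet in wild-type fat and fell with it in knockout fat. The share of all genes with this pattern was not counted. It read 6.41 to 7.16 in knockout and 6.79 to 7.05 in wild-type fat under high fat feeding, and 6.97 to 7.47 in knockout and 6.26 to 6.69 in wild-type fat under low fat feeding. The diet differences were -0.51 ± 0.16 in knockout fat (adjusted p = 0.0268) and 0.51 ± 0.16 in wild-type fat (adjusted p = 0.0216), and they differed by -1.02 ± 0.23 (adjusted p = 0.00913). The difference between the diet effects was lost in 1 of 26 settings, without the arrays of high Tnnt3 (0.167). Under low fat feeding Adamtsl4 was higher in knockout fat by 0.83 ± 0.16 (adjusted p = 0.00235). That call was lost in 1 of 27 settings, also without the arrays of high Tnnt3 (0.0625). The fall in knockout fat was lost without knockout high fat replicate 2 or 4 or knockout low fat replicate 1 or 3 (between 0.0634 and 0.0926), and the rise in wild-type fat without wild-type high fat replicate 3 or wild-type low fat replicate 3 (0.0604 and 0.0537).

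Adamtsl1, also known as punctin, fell with the diet in knockout fat by 1.01 ± 0.20 (adjusted p = 0.00125), to 8.31 to 8.81 against 9.35 to 9.69 on the low fat diet. Under high fat feeding it was lower in knockout fat, by a difference of -0.70 ± 0.20 (adjusted p = 0.0266). That difference was lost without knockout high fat replicate 1, 2 or 4 or wild-type high fat replicate 1 or 4 (between 0.0589 and 0.0884). Adamtsl5 passed in no comparison.

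**Figure D4:**
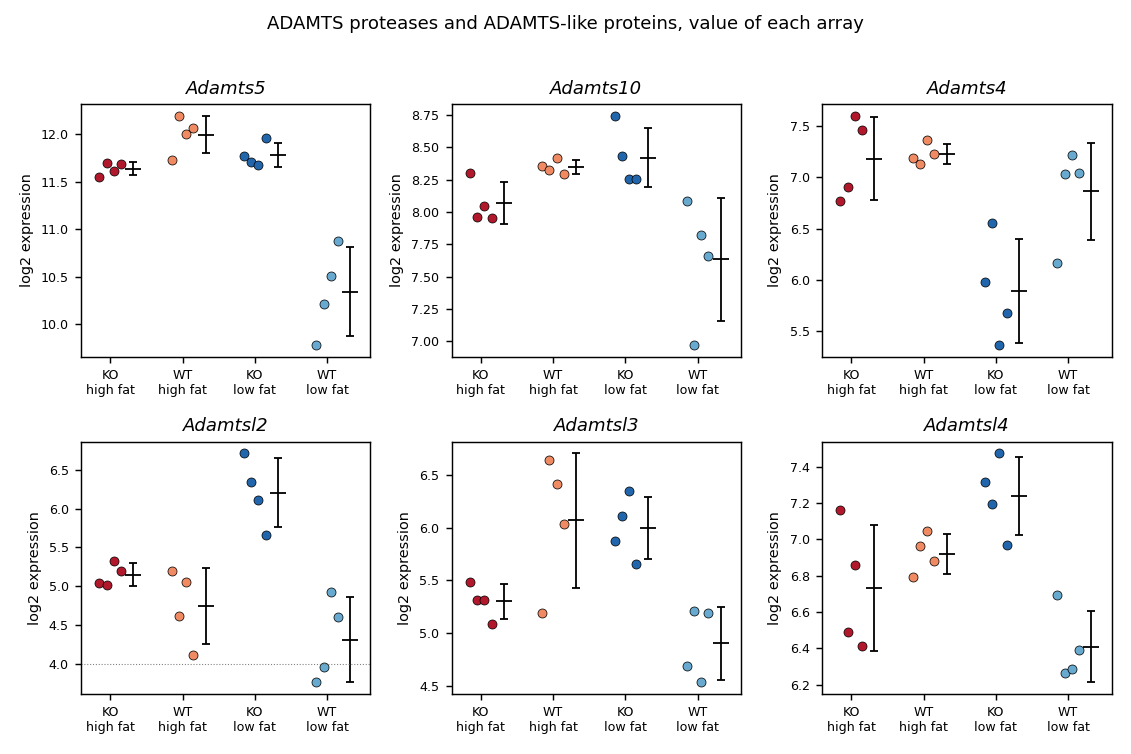
Log2 expression (vertical axes) of 3 Adamts proteases and 3 Adamts-like genes in each array, by group, with knockout (KO) left of wild type (WT) for each diet. Points are arrays, bars beside them are mean ± SD (n = 4), and the dotted line marks a log2 of 4. WT fat under low fat feeding is the low group for Adamts5, with a mean of 10.35 against 11.64 to 11.99 in the others.

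Markers of fibroblasts and progenitors did not move as 1 list. Their mean over 6 genes lay between 11.29 and 11.56 in knockout and between 11.70 and 11.76 in wild-type fat under high fat feeding, and between 11.31 and 11.87 in knockout and between 10.88 and 11.31 in wild-type fat under low fat feeding. Col1a1, Cd34 and Pi16 rose with the diet in wild-type fat and were higher in knockout fat under low fat feeding, as Adamts5 and Adamts10 were. Pdgfra, Dpp4 and Dcn passed in neither of these comparisons, and Dpp4 was lower in knockout fat under high fat feeding, by a difference of -0.76 ± 0.20 (adjusted p = 0.0174). No marker of the 6 was under 4 in a whole group. Where genes fell in knockout fat under high fat feeding, as Mmp9, Timp3 and Adamtsl1 did against wild type, other lists fell too. All 4 endothelial markers were lower there, with array means from 7.53 to 8.40 in knockout against 8.64 to 9.02 in wild-type fat. All 4 mesothelial markers were lower as well, with array means from 6.90 to 8.14 in knockout against 8.61 to 8.97 in wild-type fat. Over all genes 6.47% were lower in that comparison. The part of any of these lists in the values above was not tested.

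Of the 8 tested Adam genes for active proteases, 4 rose and 1 fell with the diet in wild-type fat and 3 rose with it in knockout fat. The shares of all genes that passed were 35.6% in wild-type fat and 29.2% in knockout fat, with 15.6% rising in knockout fat. Adam8, a membrane protease of myeloid cells, and Adam12 were the 2 genes of the 38 that passed in all 4 pairwise comparisons. These comparisons share arrays, and the share of all genes that passed in all 4 was not counted. Adam8 read 11.29, 10.43, 10.94 and 10.65 in knockout fat and 6.62, 9.20, 7.37 and 9.19 in wild-type fat under high fat feeding. Under low fat it read 7.51, 7.16, 7.78 and 6.83 in knockout fat and 6.09, 5.00, 5.83 and 5.62 in wild-type fat. Knockout fat under high fat feeding lay above all other arrays and wild-type fat under low fat feeding below them, while wild-type fat under high fat feeding again divided, with replicates 2 and 4 above. Those were the arrays of that group with the higher means of macrophage markers and the higher values of Mmp12. Of 6 neutrophil markers 3 could be tested, and they differed among themselves. S100a8, which other myeloid cells also express, lay between 10.30 and 11.40 in knockout and 8.10 and 8.88 in wild-type fat under high fat feeding, and between 6.54 and 8.89 in knockout and 4.28 and 5.80 in wild-type fat under low fat feeding. Elane lay between 3.08 and 3.30 in knockout and 3.19 and 3.58 in wild-type fat under high fat feeding. Under low fat feeding it lay between 3.43 and 3.64 in knockout and 4.28 and 5.24 in wild-type fat. Elane passed the filter through this last group alone, so the order of its other groups lies under the filter and is not read. S100a9 passed in no comparison, and Ngp, Camp and Mpo lay under 4 in all arrays. The part of these markers in the values of Adam8 was not tested.

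With the diet Adam8 rose by 3.51 ± 0.47 in knockout fat (11.4-fold, adjusted p = 4.53e-05) and by 2.46 ± 0.47 in wild-type fat (5.50-fold, adjusted p = 0.000779). Knockout fat was higher by 2.73 ± 0.47 on the high fat diet (6.66-fold, adjusted p = 0.00131) and by 1.69 ± 0.47 on the low fat diet (3.22-fold, adjusted p = 0.0194). The last of these was lost without knockout low fat replicate 1 (0.0557) or 3 (0.0552), and ranged from 0.005 to 0.127 over 27 settings. The diet effects differed by 1.05 (95% interval -0.35 to 2.45, adjusted p = 0.304).

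Adam12, a membrane protease that also exists in a secreted form, rose more evenly. It read 9.65, 10.26, 10.13 and 10.16 in knockout fat and 9.35, 9.21, 9.29 and 9.24 in wild-type fat under high fat feeding. With low fat feeding the values were 8.74, 9.39, 8.97 and 8.70 in knockout fat and 8.72, 7.75, 8.12 and 8.07 in wild-type fat. High fat arrays lay above low fat arrays within each genotype, and the low fat groups met at wild-type replicate 1. The rise with the diet was 1.10 ± 0.20 in knockout fat (adjusted p = 0.000569) and 1.11 ± 0.20 in wild-type fat (adjusted p = 0.00043), with a difference between them of -0.01 (95% interval -0.60 to 0.57). Knockout fat was higher by 0.77 ± 0.20 on the high fat diet (adjusted p = 0.0139) and by 0.79 ± 0.20 on the low fat diet (adjusted p = 0.0109). Without the arrays of high Tnnt3 these became 0.74 (adjusted p = 0.0858) and 0.57 (adjusted p = 0.23).

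Adam19, a relative of Adam12, rose with the diet by 1.08 ± 0.33 in knockout fat (adjusted p = 0.0211) and by 1.27 ± 0.33 in wild-type fat (adjusted p = 0.00686). The rise in knockout fat was lost without knockout high fat replicate 3 or 4 or knockout low fat replicate 4 (between 0.0556 and 0.0672). The rise in wild-type fat was lost without the arrays of high Tnnt3 (0.0753). Adam33 was the 1 active Adam gene to fall. It read 5.92 to 6.52 in knockout and 6.42 to 7.27 in wild-type fat under high fat feeding, and 6.16 to 7.06 in knockout and 7.30 to 7.85 in wild-type fat under low fat feeding. It was lower in knockout fat under low fat feeding, by a difference of -0.86 ± 0.21 (adjusted p = 0.0108), and on the high fat diet, by -0.70 ± 0.21 (adjusted p = 0.0356). With the diet in wild-type fat it fell by 0.66 ± 0.21 (adjusted p = 0.024). The high fat call was lost without knockout high fat replicate 1, 2 or 4 or wild-type high fat replicate 1, 3 or 4 (between 0.0628 and 0.116). The fall with the diet was lost without wild-type high fat replicate 2 or 3 or wild-type low fat replicate 1 (between 0.0573 and 0.0873). Without the arrays of high Tnnt3 both of these and the low fat call (0.0591) were lost.

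The sheddases Adam10 and Adam17, which release Notch, TNF and growth factor precursors, passed in no comparison, nor did the brightest probe set of Adam15. For Adam15, 2 dimmer probe sets, with means of 5.45 and 4.62 against 8.42, rose with the diet in wild-type fat by 1.01 (adjusted p = 0.0274) and 0.77 (adjusted p = 0.00457), where the brightest gave -0.22. The dimmest also passed for the genotype on the low fat diet (0.59, adjusted p = 0.0364) and for the difference between the diet effects (-0.89, adjusted p = 0.0386), again against the sign of the brightest. Adam10 lay between 10.89 and 11.86 in all arrays and Adam17 between 9.42 and 10.12. Adam9 rose with the diet in wild-type fat by 0.38 ± 0.13 (adjusted p = 0.0353). Adam22 and Adam23 encode surface proteins without protease activity that are best known as receptors for secreted LGI proteins in the brain. Adam23 read 10.79 to 11.11 in knockout and 10.04 to 10.84 in wild-type fat under high fat feeding, and 10.24 to 10.57 in knockout and 9.07 to 9.62 in wild-type fat under low fat feeding. It rose with the diet by 1.15 ± 0.16 in wild-type fat (adjusted p = 5.59e-05) and by 0.56 ± 0.16 in knockout fat (adjusted p = 0.0134), and was higher in knockout fat under low fat feeding by 1.04 ± 0.16 (adjusted p = 0.000368). Its diet effects differed by -0.58 ± 0.22 (adjusted p = 0.0937). In a dimmer probe set of Adam23, with a mean of 6.18, they differed by -1.13 (adjusted p = 0.0168). Adam22 rose with the diet in wild-type fat by 0.71 ± 0.19 (adjusted p = 0.00858) and was higher in knockout fat under low fat feeding by 0.90 ± 0.19 (adjusted p = 0.00397).

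**Figure D5:**
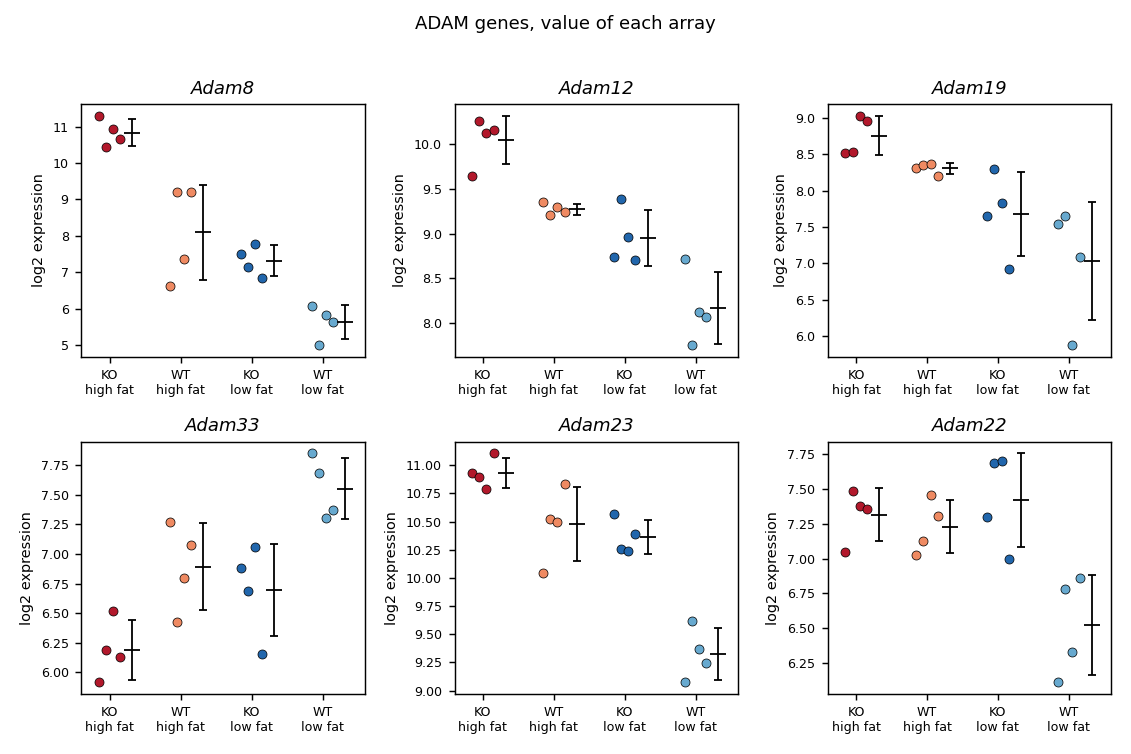
Log2 expression (vertical axes) of 6 Adam genes in each array, by group, with knockout (KO) left of wild type (WT) for each diet. Points are arrays and bars beside them are mean ± SD (n = 4). Adam8 spans 5.00 to 11.29, with KO fat under high fat feeding above all other arrays, and Adam33 is highest in WT fat under low fat feeding.

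Genes that act with these proteases were counted from 4 lists. Of 12 tested matrix substrates 8 rose and 0 fell with the diet in wild-type fat, with a median difference of 0.66 against 0.04 over all genes, and 5 were higher and 0 lower in knockout fat under low fat feeding. The background was 20.5% of all genes rising and 15.2% falling with the diet in wild-type fat, and 11.7% higher and 7.24% lower in knockout fat under low fat feeding. Col1a1, a chain of type I collagen, rose with the diet by 1.62 ± 0.23 in wild-type fat (adjusted p = 6.34e-05) and by 0.68 ± 0.23 in knockout fat (adjusted p = 0.0342). Fn1, fibronectin, rose in wild-type fat by 1.06 ± 0.17 (adjusted p = 0.000213), and its diet effects differed by -1.15 ± 0.24 (adjusted p = 0.00609). With the diet in knockout fat Col1a1 was the 1 substrate to pass, where 29.2% of all genes did. For the genotype on the high fat diet 0 of 12 passed, where 15.1% of all genes did.

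Of 14 tested matrix proteases, activators and inhibitors of other families, 4 rose and 2 fell with the diet in wild-type fat and 3 rose and 4 fell with it in knockout fat. Under low fat feeding 4 were higher and 1 lower in knockout fat, and on the high fat diet 0 were higher and 4 lower. All genes passed at 35.6%, 29.2%, 18.9% and 15.1% in these 4 comparisons, and the count for the diet in wild-type fat was near that share. Reck, a membrane-anchored inhibitor of several Mmp enzymes, fell with the diet in knockout fat by 0.85 ± 0.16 (adjusted p = 0.00102) and was lower there than in wild-type fat under high fat feeding, by a difference of -0.61 ± 0.16 (adjusted p = 0.0182). Pcolce, which enhances procollagen processing by Bmp1, rose with the diet by 0.93 ± 0.18 in knockout fat (adjusted p = 0.00139) and by 1.28 ± 0.18 in wild-type fat (adjusted p = 8.4e-05). Of 6 tested genes of the plasminogen system, which activates Mmp precursors, 3 rose with the diet in wild-type fat, 1 rose in knockout fat and 1 was higher in knockout fat under low fat feeding. The shares of all genes were 20.5%, 15.6% and 11.7%, and the last 2 counts were near them. Among them Plaur, the urokinase receptor, rose with the diet by 0.79 ± 0.28 in knockout fat (adjusted p = 0.043) and by 0.96 ± 0.28 in wild-type fat (adjusted p = 0.0133). Under high fat feeding 0 of these 6 differed between genotypes, where 15.1% of all genes did.

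Of 13 tested partners and shed targets of ADAM proteases, 8 rose and 1 fell with the diet in wild-type fat and 4 rose and 1 fell with it in knockout fat. Under low fat feeding 2 were higher in knockout fat, and on the high fat diet 1 was higher and 1 lower. With the diet 20.5% of all genes rose and 15.2% fell in wild-type fat, and 15.6% rose and 13.5% fell in knockout fat. The counts between genotypes were near the background of 11.7% higher under low fat feeding and of 8.58% higher and 6.47% lower under high fat feeding. Hbegf, a growth factor released from the membrane, rose by 1.04 ± 0.24 in knockout fat (adjusted p = 0.0038) and by 1.00 ± 0.24 in wild-type fat (adjusted p = 0.00402). Tnfrsf1b, a TNF receptor, rose by 0.94 ± 0.19 in knockout fat (adjusted p = 0.00133) and by 1.30 ± 0.19 in wild-type fat (adjusted p = 8.07e-05). Notch1 fell by 0.95 ± 0.13 in knockout fat (adjusted p = 5e-05) and by 0.42 ± 0.13 in wild-type fat (adjusted p = 0.0169), and it was lower in knockout fat under high fat feeding, by a difference of -0.82 ± 0.13 (adjusted p = 0.000696).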

How the data were processed

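White adipose tissue of 16 samples was measured on arrays, 4 per group, with groups taken from titles. Per the submitters' processing notes, GCRMA 2.20.0 under R 2.11.1 gave the deposited log2 values of the probe sets. Each array took 5 ug of RNA, per the labels' protocols. Of 45037 probe sets 34945 carried 1 symbol, and 124 of those belonged to the 70 genes. All 70 symbols matched RefSeq. limma 3.58.1 in R 4.3.3 fitted 1 mean per group to all arrays (12 residual and 3.84 prior degrees of freedom), with two-sided tests.

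The genes and lists were chosen with earlier results of these data known. Genes described with values in each array follow a rule (up to 5 largest rises and falls per comparison without overlap, Mmp12, Mmp3, every Timp and the interaction calls), and others were added. Adam genes were grouped by background knowledge, since no protein table was used here. GCRMA removes background, so differences near the filter depend on it. The pipeline was tested on simulated data. Same-numbered arrays did not pair (24 correlations of deviations, -0.32 to 0.20).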

Additional observations from a re-analysis of the deposited data

Results flagged for a closer look

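In 4 of 152 groups of 4 arrays examined, 1 array stood far from the others, and chance alone gives such a gap in about 1 of 20 groups. Adamts1 read 9.92 in wild-type low fat replicate 4, against 9.17 to 9.29 in the other 3 arrays, and Timp2 read 12.27 in the same array, against 11.65 to 11.75. Adamts3 read 7.20 in knockout low fat replicate 2, against 5.99 to 6.11, and Adamts6 read 3.65 in wild-type low fat replicate 3, against 4.75 to 4.94. All of these arrays are among the 5 with high Tnnt3, and the part of muscle in the gaps was not tested.

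For 9 genes the diet effect differed between knockout and wild-type fat in limma's interaction test (knockout minus wild type, adjusted over all genes). The differences were -1.79 for Adamts5 (0.000442), -1.86 for Adamtsl3 (0.00434), -1.58 for Mmp9 (0.00658), -1.02 for Adamtsl4 (0.00913), -1.07 for Adamts10 (0.0159), 0.81 for Mmp3 (0.0208), -1.49 for Adamtsl2 (0.0211), 2.07 for Mmp11 (0.0346) and -0.67 for Timp3 (0.036). In wild-type fat 4 of the 7 negative ones had risen with the diet (Adamts5, Adamtsl3, Adamtsl4 and Adamts10), and in knockout fat the other 3 had fallen (Mmp9, Adamtsl2 and Timp3), as had Adamtsl4.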

How the results depend on the processing

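Counts of the 38 genes past the threshold were followed through other filters, floors, variance models, scalings, probe set rules and omitted arrays. Leaving out single arrays gave 13 to 18 calls for the diet in wild-type fat, 16 to 20 for the diet in knockout fat, 11 to 16 for the genotype on the low fat diet, 5 to 10 on the high fat diet and 7 to 11 for the interaction. The count of 9 on the high fat diet fell to 5 without knockout high fat replicate 1, 2 or 4 and became 15 with array weights. Without the 5 arrays of high Tnnt3, chosen after seeing the data, counts were 9, 16, 5, 3 and 2 in the same order, from fewer arrays. With the replicate number as a block, which the labels give no reason to read as a pairing, counts were 16, 18, 15, 8 and 9, and 3 of 56 gene calls were lost. Of 1583 values of single genes under these settings, 1451 kept direction and side of the threshold, 126 lost a call, 6 gained one and 0 changed direction. The lost calls fell on 31 of the 59 gene results followed. Between 4 and 15 further probe sets per comparison belonged to a gene whose brightest probe set passed there, and 0 of them passed with the opposite sign. Those that passed with the same sign were 8 of 10 for the diet in wild-type fat and 12 of 15 in knockout fat. For the genotype they were 5 of 10 on the low fat diet and 3 of 4 on the high fat diet, and for the interaction 4 of 8.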
